A study of Mus musculus with 16 samples.

Results

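The 10 genes described here encode enzymes of glycolysis from hexokinase to pyruvate kinase: Hk2, Gpi1, Pfkl, Pfkp, Aldoa, Tpi1, Pgk1, Pgam1, Eno1 and Pkm. They were taken by symbol from 38924 rows of a table of raw read counts, with 1 or 2 enzymes for each step, and all 10 were found. Gapdh was left out of the set because of its many processed copies. The counts came from bulk RNA sequencing of interscapular brown fat, the heat-producing fat depot between the shoulder blades, of C57BL/6J mice. The 4 groups, with 4 libraries each and 16 in all, were Akt2 knockout (KO) at 22 °C, wild-type littermates (WT) at 22 °C, KO at 30 °C and WT at 30 °C. The knockout was specific to brown fat and was made with UCP1-CreER, a Cre recombinase driven by the Ucp1 promoter, so cells of the depot that do not use that promoter would keep Akt2. Mice of all groups entered their ambient temperature at 9 weeks of age and stayed there for 4 weeks, to an age of 13 weeks. The series asks how brown fat metabolism adapts to temperature without AKT2, a protein kinase of the insulin response. The labels number the libraries and leave unsaid whether each is a separate animal; the p-values therefore reflect the spread among libraries, which may be technical.

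Glycolysis splits glucose into pyruvate in the cytosol. In its first phase ATP is spent to phosphorylate glucose and cleave it into triose phosphates, and in its second phase the trioses are oxidised and ATP is made. Insulin acting through AKT is known to raise glucose uptake and hexokinase in fat and muscle. In brown fat under cold stress, glucose supplies pyruvate to mitochondria, glycerol for triglyceride and carbon for new fatty acids.

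Library totals ranged from 12751528 to 23866743 counts. Akt2 itself stood at 76.3, 85.0, 89.3 and 78.2 CPM (read counts scaled to library size by trimmed-mean factors) in KO at 22 °C, against 216, 261, 224 and 226 CPM in WT at 22 °C. At 30 °C it stood at 81.0, 66.2, 74.4 and 56.2 CPM in KO, against 196, 192, 221 and 205 CPM in WT. Every KO library lay below every WT library at both temperatures, as the labels state. The 12 brown adipocyte markers, Ucp1 among them, held 1.95 to 2.53% of counts in KO at 22 °C and 1.79 to 3.00% in WT at 22 °C. At 30 °C they held 1.36 to 1.59% in KO and 1.38 to 1.56% in WT. The list includes genes of fat cells in general, such as Fabp4, at 9005 to 10137 CPM in KO at 22 °C. Within it, Ppargc1a was higher and Plin1 lower in KO than in WT at 22 °C (edgeR, adjusted p under 0.05). RNA of skeletal muscle was uneven: its 15 markers held up to 0.719% of counts in KO at 22 °C, 0.0282% in WT at 22 °C, 0.445% in KO at 30 °C and 0.292% in WT at 30 °C. The difference in log2 CPM between Dbp and Arntl (Dbp minus Arntl), clock genes that peak at opposite times of day, ran from -3.48 to -2.22 in KO at 22 °C and from -0.81 to 1.79 in WT at 22 °C. It ran from -1.37 to 0.26 in KO at 30 °C and from -0.57 to 0.40 in WT at 30 °C, so the KO libraries at 22 °C lay below all others. The labels used here give no time of tissue collection.

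**Figure D1:**
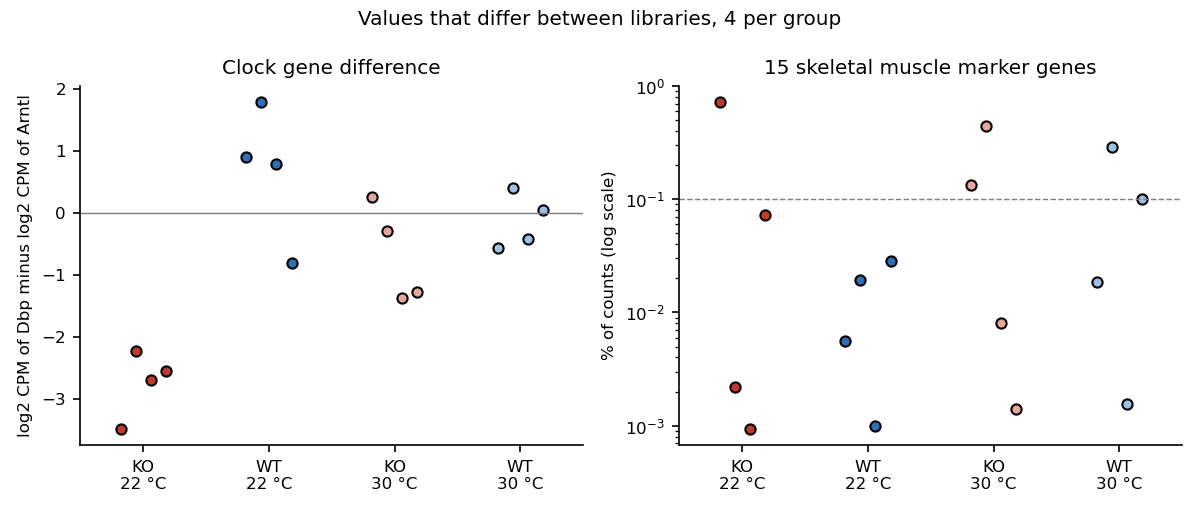
Left, the log2 CPM of Dbp minus the log2 CPM of Arntl, and right, the share of counts on 15 skeletal muscle markers (log scale, dashed line at 0.1%), with 1 point per library and 4 libraries per group. The 4 KO libraries at 22 °C have the lowest clock difference, -3.48 to -2.22, and muscle RNA is highest in replicate 1 of that group, at 0.719%.

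Promoter sequences of 4 of the genes are shown because they differ in what they hold: Eno1 and Gpi1, the pair furthest below WT in KO at 22 °C, and Pgk1 and Tpi1, which were not called in that comparison. Each is the RefSeq window (GRCm38.p6) of 250 bases before to 50 bases after a transcription start, the one listed first where a gene had several, read 5′ to 3′ on the gene's strand. Capitals mark ACGTG and GCGTG, the core letters to which hypoxia-inducible factors bind, CACGTG, the palindromic E-box, and GGGCGG, the GC box of SP-family factors, each on either strand. A match of CACGTG always holds ACGTG, and neighbouring capitals can join overlapping matches.
Eno1, chr4:150236458-150236757, plus strand: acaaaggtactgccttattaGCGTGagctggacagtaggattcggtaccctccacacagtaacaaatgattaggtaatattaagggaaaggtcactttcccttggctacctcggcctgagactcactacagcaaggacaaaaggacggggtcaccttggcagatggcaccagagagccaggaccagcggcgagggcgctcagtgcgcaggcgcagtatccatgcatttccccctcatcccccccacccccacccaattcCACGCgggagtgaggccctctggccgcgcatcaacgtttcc
Gpi1, chr7:34230287-34230586, minus strand: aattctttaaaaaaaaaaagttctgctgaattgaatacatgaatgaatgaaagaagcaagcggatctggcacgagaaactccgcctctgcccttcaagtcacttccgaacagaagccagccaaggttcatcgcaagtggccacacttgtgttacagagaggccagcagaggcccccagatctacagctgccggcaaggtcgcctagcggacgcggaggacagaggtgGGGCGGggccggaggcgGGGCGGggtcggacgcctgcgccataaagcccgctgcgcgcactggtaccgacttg
Pgk1, chrX:106186850-106187149, plus strand: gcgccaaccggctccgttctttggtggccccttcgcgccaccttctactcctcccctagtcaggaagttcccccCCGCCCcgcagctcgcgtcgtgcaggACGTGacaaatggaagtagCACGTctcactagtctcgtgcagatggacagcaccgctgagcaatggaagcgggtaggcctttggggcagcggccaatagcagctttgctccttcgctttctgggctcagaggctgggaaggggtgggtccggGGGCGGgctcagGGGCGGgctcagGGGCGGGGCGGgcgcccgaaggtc
Tpi1, chr6:124814109-124814408, minus strand: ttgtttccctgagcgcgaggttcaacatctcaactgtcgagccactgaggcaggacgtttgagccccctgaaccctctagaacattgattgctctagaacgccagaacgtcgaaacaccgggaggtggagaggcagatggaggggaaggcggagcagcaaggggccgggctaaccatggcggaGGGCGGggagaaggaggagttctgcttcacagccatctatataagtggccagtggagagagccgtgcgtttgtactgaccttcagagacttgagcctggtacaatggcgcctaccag

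GGGCGG was in the windows of 8 of the 10 genes, Aldoa and Eno1 being without it, and in 35.9% of the 27025 promoter windows of the same length. ACGTG was in 3 of 10 (Hk2, Pgk1 and Pgam1), against 19.7% of all windows. GCGTG was in 4 of 10 (Pfkl, Pfkp, Pgam1 and Eno1), against 32.5% of all windows. CACGTG was in none of the 10 windows and in 7.24% of all. TATAAA, a common form of the TATA box, which is not capitalised, was also in none of the 10 and in 14.2% of all. Variants of the TATA box were not searched for, and the Tpi1 window printed above holds such a variant, tatataag. Among the 4 windows printed, Gpi1 and Tpi1 hold GGGCGG without ACGTG or GCGTG, Eno1 holds GCGTG without GGGCGG, and Pgk1 holds ACGTG and GGGCGG. These matches are letters in a window and say nothing of binding. The windows of the 10 genes held 52.7% (Aldoa) to 67.3% (Hk2) of G and C, against a median of 52.7% over all windows. The shares of windows with a match were not adjusted for base composition.

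At 22 °C, 7 of the 10 enzymes were lower in KO than in WT brown fat. They were Hk2, Gpi1, Pfkl, Pfkp, Aldoa, Eno1 and Pkm, with fitted levels 1.63-fold to 2.54-fold lower. Tpi1, Pgk1 and Pgam1 did not pass the test, with log2 fold changes of -0.24, -0.36 and -0.30. Genes were called at a Benjamini-Hochberg adjusted p under 0.05 in edgeR's quasi-likelihood test over 14103 genes. Of all genes tested, 10.1% were called lower in this comparison and 7.52% higher. The median log2 fold change of the 10 was -1.02, against 0.02 over all genes tested. None of the 10 was called higher, by edgeR, DESeq2 or limma-voom, and none had a positive log2 fold change. In bulk tissue, fewer cells of a type and less RNA per cell cannot be told apart.

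Hk2 (ENSMUSG00000000628, chromosome 6, 82725025 to 82774454, minus strand, GRCm38) encodes hexokinase 2, the insulin-responsive isozyme that phosphorylates glucose on entry. It stood at 528, 402, 397 and 443 CPM in KO at 22 °C, against 980, 491, 645 and 769 CPM in WT at 22 °C. At 30 °C it stood at 428, 319, 296 and 277 CPM in KO, against 311, 317, 366 and 314 CPM in WT. The ranges at 22 °C overlapped, since replicate 1 of KO lay above replicate 2 of WT. The log2 fold change in KO at 22 °C was -0.71 (SE 0.18, adjusted p = 0.0148, edgeR). It was -0.70 (adjusted p = 0.0739) when only the 2 groups were fitted.

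Gpi1 (ENSMUSG00000036427, chromosome 7, 34201330 to 34230336, minus strand) encodes glucose phosphate isomerase, which turns glucose phosphate into fructose phosphate. It stood at 282, 291, 274 and 275 CPM in KO at 22 °C, against 767, 747, 539 and 557 CPM in WT at 22 °C. At 30 °C it stood at 331, 326, 358 and 347 CPM in KO, against 314, 336, 341 and 296 CPM in WT. All KO libraries at 22 °C lay close together, far below WT at 22 °C and below all 8 libraries at 30 °C. The log2 fold change in KO at 22 °C was -1.22 (SE 0.11, adjusted p = 3.26e-06, edgeR), or 2.33-fold lower.

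Pfkl (ENSMUSG00000020277, chromosome 10, 77986947 to 78010083, minus strand) encodes the liver-type phosphofructokinase, an isozyme of the committed step. It stood at 520, 592, 545 and 674 CPM in KO at 22 °C, against 1560, 1516, 1021 and 960.4 CPM in WT at 22 °C. At 30 °C it stood at 462, 502, 490.5 and 479 CPM in KO, against 562, 468, 438 and 458 CPM in WT. The groups at 22 °C did not overlap, and the groups at 30 °C did. Its log2 fold change in KO at 22 °C was -1.12 (SE 0.15, adjusted p = 0.000151, edgeR).

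Pfkp (ENSMUSG00000021196, chromosome 13, 6579768 to 6648777, minus strand) encodes the platelet-type phosphofructokinase. It stood at 132, 116, 101.1 and 117 CPM in KO at 22 °C, against 336, 223, 164 and 197 CPM in WT at 22 °C. At 30 °C it stood at 70.6, 70.6, 76.9 and 69.2 CPM in KO, against 83.3, 72.3, 80.1 and 71.2 CPM in WT. Both genotypes at 22 °C lay above every library at 30 °C, with KO between WT at 22 °C and the warm groups. The log2 fold change in KO at 22 °C was -0.98 (SE 0.16, adjusted p = 0.0011, edgeR). Pfkp shares 748 exonic bases with Pitrm1 on the opposite strand, and the strand setting of the counting is not given in the sources used here, so reads there cannot be assigned to 1 of the genes.

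Aldoa (ENSMUSG00000030695, chromosome 7, 126795234 to 126800751, minus strand) encodes aldolase A, which cleaves fructose bisphosphate into triose phosphates. It stood at 2364, 1844, 1751 and 1698 CPM in KO at 22 °C, against 5194, 4816, 3462 and 3463 CPM in WT at 22 °C. At 30 °C it stood at 1452, 1498, 1273 and 1248 CPM in KO, against 1203, 1352, 1352 and 1159 CPM in WT. KO at 22 °C lay wholly below WT at 22 °C and wholly above both groups at 30 °C. The log2 fold change in KO at 22 °C was -1.15 (SE 0.14, adjusted p = 8.75e-05, edgeR). Its highest KO library at 22 °C, replicate 1, is also the one with most skeletal muscle RNA.

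Tpi1 (ENSMUSG00000023456, chromosome 6, 124810586 to 124814296, minus strand) encodes triose phosphate isomerase, which interconverts the triose phosphates. It stood at 309, 272, 277 and 287 CPM in KO at 22 °C, against 396, 414, 289 and 255 CPM in WT at 22 °C. At 30 °C it stood at 291, 286, 299 and 275 CPM in KO, against 277, 285, 261 and 269 CPM in WT. The libraries of the groups at 22 °C overlapped, with WT replicate 4 below all KO libraries. The log2 fold change in KO at 22 °C was -0.24 (SE 0.12, adjusted p = 0.173, edgeR).

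In the second phase, Pgk1 (ENSMUSG00000062070, chromosome X, 106187100 to 106203699, plus strand) encodes phosphoglycerate kinase, which makes the pathway's first ATP. Pgk1 stood at 25.5, 27.4, 25.7 and 26.7 CPM in KO at 22 °C, against 35.5, 43.8, 28.5 and 27.8 CPM in WT at 22 °C. At 30 °C it stood at 23.2, 19.2, 19.6 and 19.0 CPM in KO, against 16.4, 19.1, 19.5 and 19.7 CPM in WT. The KO libraries at 22 °C lay just below the lowest WT libraries, with a log2 fold change of -0.36 (SE 0.12, adjusted p = 0.0547, edgeR). DESeq2 gave an adjusted p of 0.0322.

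Pgam1 (ENSMUSG00000011752, chromosome 19, 41911923 to 41918660, plus strand) encodes phosphoglycerate mutase, which shifts the phosphate on glycerate. It stood at 15.7, 21.4, 19.7 and 21.0 CPM in KO at 22 °C, against 28.6, 24.3, 22.3 and 20.6 CPM in WT at 22 °C. At 30 °C it stood at 14.2, 15.8, 16.6 and 16.7 CPM in KO, against 14.0, 14.6, 15.5 and 15.8 CPM in WT. The groups at 22 °C overlapped, and the log2 fold change there was -0.30 (SE 0.11, adjusted p = 0.0749, edgeR). Without WT replicate 4 at 22 °C, adjusted p values were 0.0197 for Pgk1, 0.0231 for Tpi1 and 0.0351 for Pgam1 (edgeR). All 10 genes were then called lower, against 7 or 8 with any other 1 library left out. Calls over all genes rose too in that fit, to 1762 lower and 1318 higher of 14274 tested. The full fit had 1421 lower and 1061 higher of 14103.

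Eno1 (ENSMUSG00000063524, chromosome 4, 150236721 to 150248879, plus strand) encodes enolase 1, which makes phosphoenolpyruvate. It stood at 295, 366, 353 and 349.6 CPM in KO at 22 °C, against 998, 1080.5, 698 and 690.4 CPM in WT at 22 °C. At 30 °C it stood at 309, 277, 300.2 and 295 CPM in KO, against 262, 285, 334 and 248 CPM in WT. Even the lowest WT library at 22 °C was far above the highest KO library. The log2 fold change in KO at 22 °C was -1.34 (SE 0.14, adjusted p = 1.96e-05, edgeR), the furthest from 0 of the 10, at 2.54-fold lower.

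Pkm (ENSMUSG00000032294, chromosome 9, 59656368 to 59679375, plus strand) encodes the muscle-type pyruvate kinases, which make pyruvate and ATP. It stood at 769.6, 773, 719.9 and 720.2 CPM in KO at 22 °C, against 1757, 1853, 1266 and 1346 CPM in WT at 22 °C. At 30 °C it stood at 875, 818, 839.7 and 876 CPM in KO, against 726, 837, 892 and 758 CPM in WT. The KO libraries at 22 °C lay far below WT at 22 °C and below KO at 30 °C, and overlapped with replicates 1 and 4 of WT at 30 °C. The log2 fold change in KO at 22 °C was -1.06 (SE 0.11, adjusted p = 1.76e-05, edgeR). Gene counts do not separate its splice forms.

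**Figure D2:**
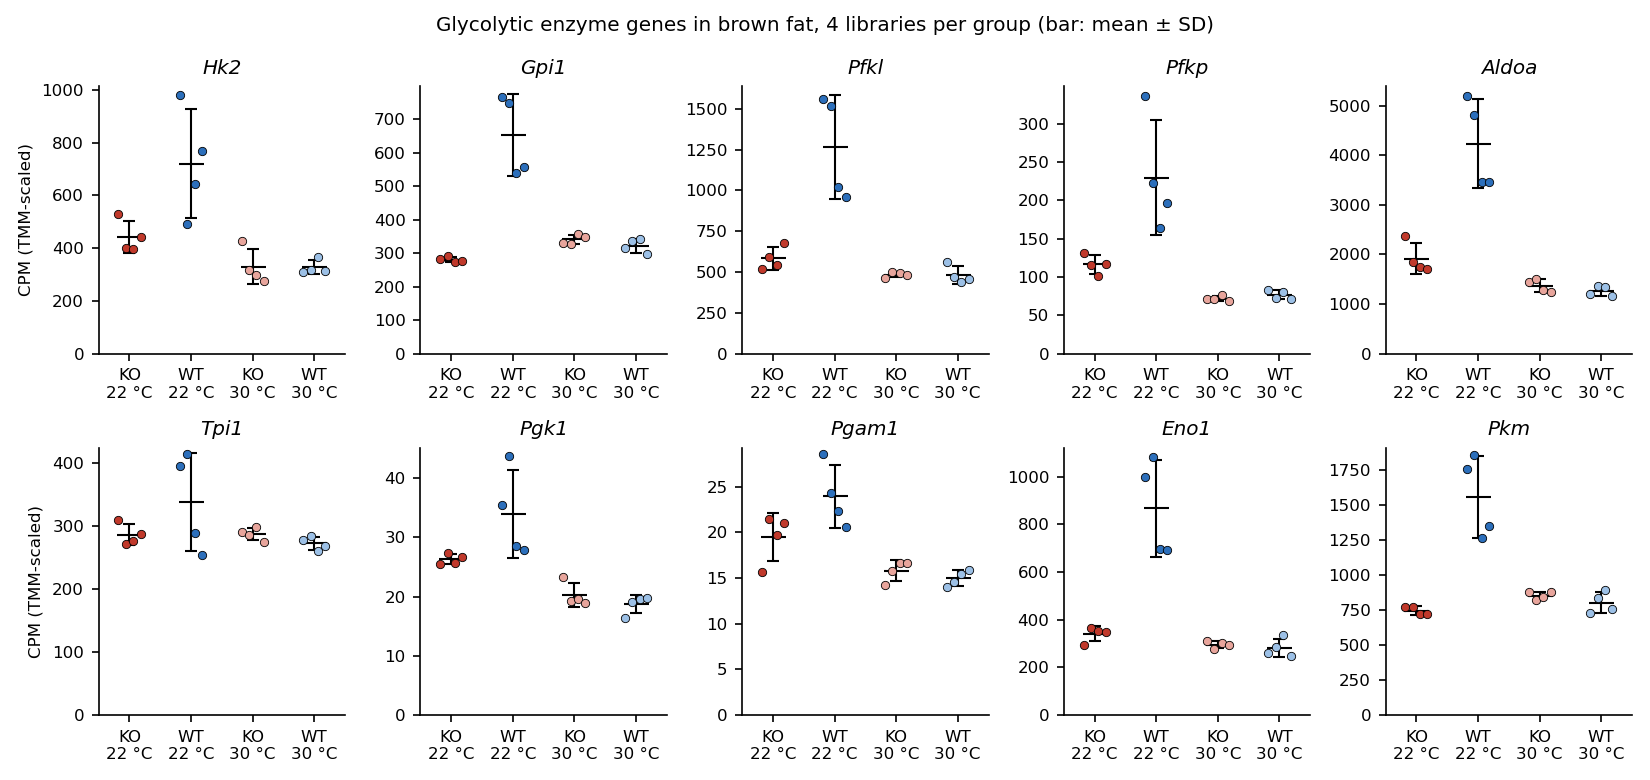
CPM of each enzyme gene in pathway order, with 1 point per library, the bar at the mean and whiskers of 1 SD (n = 4 per group). WT at 22 °C is the highest group for all 10 genes, from 23.9 CPM for Pgam1 to 4234 CPM for Aldoa on average, and the KO and WT groups at 30 °C lie together.

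The WT libraries at 22 °C were themselves spread. Replicates 1 and 2 lay above replicates 3 and 4 in every one of the genes but Hk2. The 10 genes together took 0.499, 0.461, 0.442 and 0.460% of counts in KO at 22 °C, against 1.03, 1.01, 0.755 and 0.746% in WT at 22 °C. They took 0.438, 0.428, 0.412 and 0.421% in KO at 30 °C, against 0.414, 0.434, 0.446 and 0.386% in WT at 30 °C. The summed share of KO at 22 °C was therefore below that of every WT library at 22 °C and overlapped with the 30 °C groups only through the highest WT library there. Ucp1, the uncoupling protein of brown fat, was spread in the same WT libraries, at 8719, 7831, 4399 and 3764 CPM, and stood at 4275, 7868, 7762 and 8756 CPM in KO at 22 °C. Its log2 fold change in KO at 22 °C was 0.21 (SE 0.24, adjusted p = 0.565, edgeR).

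The clock gene difference moved with genotype at 22 °C. With that difference as a covariate in the edgeR fit, 1 of the 10 genes was called lower in KO at 22 °C, in place of 7. That gene was Gpi1, with a log2 fold change of -0.97 (SE 0.21, adjusted p = 0.0489). The other 6 kept negative log2 fold changes, from -0.97 for Pfkp to -0.63 for Pfkl, with adjusted p from 0.166 for Pkm to 0.46 for Hk2. Tpi1 and Pgk1 turned to 0.22 and 0.28. The covariate also took the genes called lower in KO at 22 °C, over all genes tested, to 82, against 1421 without it. Since KO and WT libraries at 22 °C do not overlap in this difference, the 2 cannot be told apart within that temperature. Without the 4 libraries that had over 0.1% of counts on muscle markers, 7 genes were called lower in KO at 22 °C, the count of the full fit.

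At 30 °C none of the 10 genes was called in KO against WT, in either direction, by edgeR, DESeq2 or limma-voom. None had an unadjusted p under 0.05 in edgeR. Of all genes tested, 0.0142% were called lower and 0.0284% higher. Log2 fold changes ran from -0.09 for Pfkp (95% interval -0.41 to 0.22) to 0.11 for Pgk1 (95% interval -0.13 to 0.36), with adjusted p of 0.998 for all 10. Eno1, furthest below WT at 22 °C, had a log2 fold change of 0.06 (95% interval -0.21 to 0.33) at 30 °C. Gpi1 (-0.12 to 0.29) and Pkm (-0.13 to 0.30) likewise had intervals whose lower ends lay far above their log2 fold changes at 22 °C. The median of the 10 was 0.08, against 0.02 over all genes.

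Whether the KO effect differed between 22 °C and 30 °C was tested as an interaction. It was called negative for 6 of the 10 genes, against 2.39% of all genes tested called lower and 0.752% called higher. The difference was -1.41 for Eno1 (SE 0.20, adjusted p = 0.0012, edgeR), -1.30 for Gpi1 (SE 0.15, adjusted p = 0.000276), -1.26 for Aldoa (SE 0.20, adjusted p = 0.00297) and -1.15 for Pkm (SE 0.15, adjusted p = 0.000954). Pfkl gave -1.12 (SE 0.20, adjusted p = 0.00911) and Pfkp -0.89 (SE 0.23, adjusted p = 0.0481). The call for Pfkp was lost when any 1 of 12 libraries was left out, with no filter on low counts (adjusted p = 0.0605), under a skeletal muscle covariate (0.0528), without the muscle-rich libraries (0.198), under the clock covariate (0.584) and under the replicate block (0.0557). Hk2 gave -0.72 (adjusted p = 0.124) in edgeR, but was called by DESeq2 (-0.74, adjusted p = 0.0422), by limma-voom (-0.80, adjusted p = 0.0279) and by edgeR without replicate 2 of WT at 22 °C (-0.86, adjusted p = 0.0459). Pgk1 gave -0.48 (adjusted p = 0.141), Pgam1 -0.38 (adjusted p = 0.19) and Tpi1 -0.32 (adjusted p = 0.303). None was called positive by edgeR, DESeq2 or limma-voom, and none had a positive value. With the clock covariate none of the 10 was called in the interaction, and Gpi1 had an adjusted p of 0.0516. With the 4 muscle-rich libraries left out, 4 of the 10 were called, Pfkl having an adjusted p of 0.13.

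**Figure D3:**
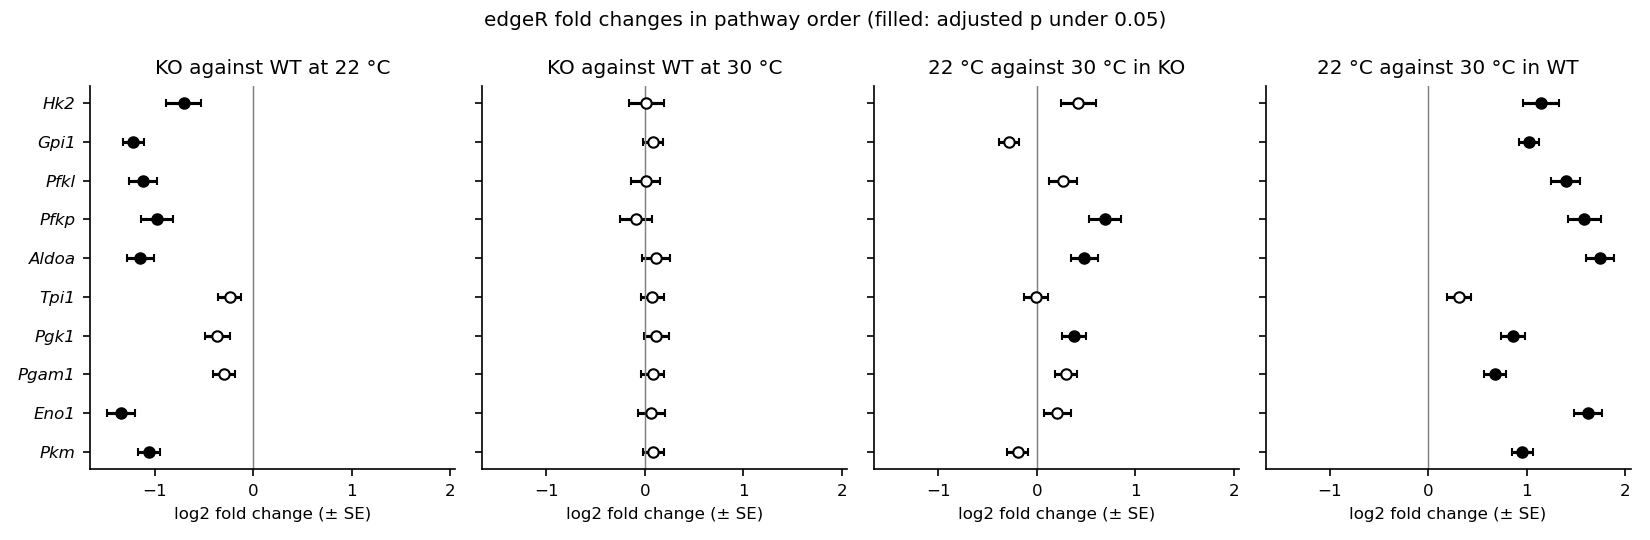
Log2 fold change of each gene in pathway order from edgeR, with bars of 1 SE, in 4 comparisons, filled where the adjusted p was under 0.05. KO against WT at 22 °C reaches -1.34 for Eno1, the same comparison at 30 °C stays within -0.09 to 0.11, and 22 °C against 30 °C is near -0.28 to 0.70 in KO and 0.31 to 1.74 in WT.

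In KO brown fat, 3 of the 10 genes were higher at 22 °C than at 30 °C, where 13.8% of all genes tested were called higher and 13% lower. Over all genes these were 1943 higher and 1829 lower, and upper-quartile factors gave 1179 higher and 2540 lower. Pfkp had a log2 fold change of 0.70 (SE 0.16, adjusted p = 0.0057, edgeR), Aldoa 0.48 (SE 0.14, adjusted p = 0.0182) and Pgk1 0.38 (SE 0.13, adjusted p = 0.0353). The share of members called is read against a background in which 13.8% of genes were called, and these calls were fragile. Pgk1 lost its call under upper-quartile factors (0.28, adjusted p = 0.113), with no filter on low counts (adjusted p = 0.0501) and when any 1 of 11 libraries was left out, Aldoa without replicate 3 or replicate 4 of KO at 30 °C, or without replicate 1 of KO at 22 °C, and none of the 3 was called without the muscle-rich libraries. In that fit the log2 fold changes were 0.61 for Pfkp (adjusted p = 0.098), 0.48 for Aldoa (adjusted p = 0.0931) and 0.47 for Pgk1 (adjusted p = 0.109). Hk2 had 0.42 (adjusted p = 0.0906), Pgam1 0.30 (adjusted p = 0.0629), Pfkl 0.27 (adjusted p = 0.18), Eno1 0.21 (adjusted p = 0.279) and Tpi1 -0.01 (adjusted p = 0.977). Gpi1 and Pkm had negative values, -0.28 (SE 0.10, adjusted p = 0.0581) and -0.19 (SE 0.11, adjusted p = 0.203). No gene of the 10 was called lower by edgeR, while DESeq2 called Gpi1 (adjusted p = 0.0455) and limma-voom called Gpi1 and Pkm, and 1 had an unadjusted p under 0.05 in that direction.

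In WT brown fat, 9 of the 10 genes were higher at 22 °C than at 30 °C, all but Tpi1. Of all genes tested, 20.5% were called higher and 17.8% lower. These counts over all genes were 2897 higher and 2509 lower, and upper-quartile factors gave 2196 higher and 3382 lower, so the split depends on scaling. The 9 calls were made under those factors too. Aldoa had a log2 fold change of 1.74 (SE 0.14, adjusted p = 5.26e-07, edgeR), or 3.34-fold higher. Eno1 had 1.62 (SE 0.14, adjusted p = 9.65e-07) and Pfkp 1.58 (SE 0.16, adjusted p = 4.65e-06). Pfkl had 1.39 (SE 0.15), Hk2 1.14 (SE 0.18), Gpi1 1.02 (SE 0.10), Pkm 0.95 (SE 0.11), Pgk1 0.86 (SE 0.13) and Pgam1 0.68 (SE 0.11), with adjusted p from 4.01e-06 to 0.000266. Tpi1 had 0.31 (SE 0.12, adjusted p = 0.0548), and DESeq2 called it (adjusted p = 0.0318). None of the 10 was called lower by edgeR, DESeq2 or limma-voom, and all 10 had positive values. The median of the 10 was 1.08 in WT and 0.28 in KO, against -0.03 and 0.02 over all genes. Macrophage markers, 12 in number, held 0.0108 to 0.0234% of counts in WT at 22 °C and 0.0242 to 0.0375% in WT at 30 °C. They held 0.0134 to 0.0167% in KO at 22 °C and 0.0260 to 0.0321% in KO at 30 °C. The 10 endothelial markers held 0.0877 to 0.108% in WT at 22 °C, against 0.174 to 0.178% in WT at 30 °C. They held 0.122 to 0.141% in KO at 22 °C, against 0.167 to 0.200% in KO at 30 °C. In KO against WT at 22 °C, 5 of these 10 were called higher by edgeR, against 7.52% of all genes tested. All 10 had positive log2 fold changes there, with a median of 0.36. The 5 white adipocyte markers held 0.00512 to 0.0232% in WT at 22 °C and 0.0326 to 0.0471% in WT at 30 °C. They held 0.00685 to 0.0192% in KO at 22 °C and 0.0159 to 0.0272% in KO at 30 °C, which overlap. These markers did not move together. Of the 4 tested, Retn was called higher and Nnat lower at 22 °C than at 30 °C in WT. In KO, Retn was called higher, and Nnat and Lep lower. The part of these cell types in the results was not tested.

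Levels were compared between genes per kilobase of merged exon, in CPM per kb. Aldoa was highest in all 4 groups, at 658 CPM per kb in KO at 22 °C, 1454 in WT at 22 °C, 469.9 in KO at 30 °C and 435 in WT at 30 °C. Pkm came next in each group, at 149, 311, 170.4 and 161 CPM per kb in the same order of groups. Their library ranges did not overlap with each other or with the next gene. In KO at 22 °C the order went on with Tpi1 (104 CPM per kb), Pfkl (87.3), Hk2 (74.1), Eno1 (63.4) and Gpi1 (43.5). In WT at 22 °C it went on with Pfkl (189), Eno1 (161), Tpi1 (123), Hk2 (121) and Gpi1 (101.2), so Tpi1 came after Pfkl and Eno1 there. Neighbours from Tpi1 to Eno1 in KO at 22 °C, and from Pfkl to Gpi1 in WT at 22 °C, overlapped in their library ranges. In KO at 30 °C and WT at 30 °C the order was Tpi1, Pfkl, Hk2, Eno1 and Gpi1, with Hk2, Eno1 and Gpi1 overlapping in neighbouring pairs. Pgk1, Pgam1 and Pfkp were lowest throughout, at 5.36 to 17.2 CPM per kb. The place of Hk2 depends on the length used. Per kb of coding sequence it lay below Eno1 and Gpi1 in all 4 groups, at 161 CPM in KO at 22 °C (Eno1 244, Gpi1 164) and 262 CPM in WT at 22 °C (Eno1 620, Gpi1 382).

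The low levels of Pgk1 and Pgam1 come with shared sequence. Of the 50-base stretches of their transcripts, 68.0% for Pgk1 and 41.5% for Pgam1 also occur in transcripts of other genes, mostly processed copies. Pgk1 had 6423 counts over all libraries and Pgam1 4853, while rows of the other genes sharing those stretches held 15 and 24. Gapdh, with 82.5% shared, had 19433 counts over all libraries. Eno1 also shares 72.2% of its stretches and Pkm 34.4%, with 143 and 3 counts in the rows that share them. Gpi1 shares 25.3% of its stretches with 122 other genes, whose rows held 943936 counts, against 104498 for Gpi1 itself. Those are counts of whole rows, not of the shared stretches alone. Only 1 gene was a near-identical copy of Gpi1 (at least 95% identity over 200 bases or more), and its row held 479 counts. Pfkp shares 17.1%, with 1 gene, whose row held 18652 counts against 32789 for Pfkp. That gene is Pitrm1, which overlaps Pfkp on the opposite strand, so the shared stretches come from the same place in the genome. How reads that match several places were handled is not given in the sources used here. The levels of these genes depend on that handling, or for Pfkp on the strand setting. Their place in the order is therefore uncertain. The merged exon length of Pfkp is 13401 bases, against 2629 coding bases and 4145 bases in its longest protein-coding transcript.

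Isozymes of the same step were compared by their share of CPM per kb. Hk2 made up 94.4% of hexokinase in KO at 22 °C, 94.8% in WT at 22 °C, 91.6% in KO at 30 °C and 90.4% in WT at 30 °C, and Hk1, the broadly expressed form, made up most of the rest. Aldoa took at least 99.29% of aldolase and Pkm at least 99.96% of pyruvate kinase on average in every group. For phosphofructokinase, Pfkl took 60.9 ± 12.01% in KO at 22 °C, 75.7 ± 2.98% in WT at 22 °C, 54.5 ± 5.69% in KO at 30 °C and 58.3 ± 5.60% in WT at 30 °C (SD, n = 4). Pfkm, the muscle form, took 33.1, 17.5, 41.5 and 37.1% in those groups, and Pfkp took 5.98, 6.86, 4.04 and 4.65%. By coding length Pfkp took 12.3, 12.7, 8.87 and 9.88%, and Pfkm 18.3, 8.56, 24.1 and 20.8%. Pfkm stood at 312, 122, 117 and 124 CPM in KO at 22 °C, where replicate 1 had most muscle RNA. Its share per kb of exon there ran from 25.3 to 51.6%. It stood at 128 to 168 CPM in WT at 22 °C, 143 to 263 in KO at 30 °C and 128 to 200 in WT at 30 °C. The highest Pfkm values at 30 °C were in replicate 2 of each genotype, the library with most muscle RNA of its group. Eno1 took 78.2 ± 21.1% of enolase in KO at 22 °C, 95.03 ± 1.64% in WT at 22 °C, 73.9 ± 15.97% in KO at 30 °C and 74.1 ± 12.9% in WT at 30 °C. The rest was nearly all Eno3, the muscle enolase, at 21.2, 4.80, 25.2 and 24.9% in those groups. By coding length Eno1 took 89.4, 98.1, 87.7 and 88.0% of enolase, and Eno3 9.91, 1.72, 11.3 and 10.8%. Replicate 1 of KO at 22 °C, with most muscle RNA, had Eno1 at 47.7% and Eno3 at 51.4%, and without it the group averaged 88.3% for Eno1 and 11.1% for Eno3. Without all muscle-rich libraries, Eno1 took 85.2% in KO at 30 °C (2 libraries left) and 79.2% in WT at 30 °C (3 left), and Eno3 13.7 and 19.6%. Eno3 reached 102.9 CPM in KO at 22 °C, 19.6 in WT at 22 °C, 83.7 in KO at 30 °C and 63.6 in WT at 30 °C. Its highest values fall in libraries with much skeletal muscle RNA. Pgam1 took 60.6 ± 40.0% of phosphoglycerate mutase in KO at 22 °C, 80.6 ± 9.84% in WT at 22 °C, 58.8 ± 39.5% in KO at 30 °C and 55.7 ± 30.9% in WT at 30 °C. Pgam2, the muscle form, took the rest. Pgam1 ran from 7.86 to 94.2% over single libraries. Pgam2 stood at 77.8 CPM in replicate 1 of KO at 22 °C, 36.2 in replicate 2 of KO at 30 °C and 24.3 in replicate 2 of WT at 30 °C. Each is the library with most muscle RNA of its group. In the libraries with least muscle RNA of the same groups, Pgam2 stood at 0.668, 0.436 and 0.921 CPM. The part of muscle RNA in these isozyme shares was not tested.

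**Figure D4:**
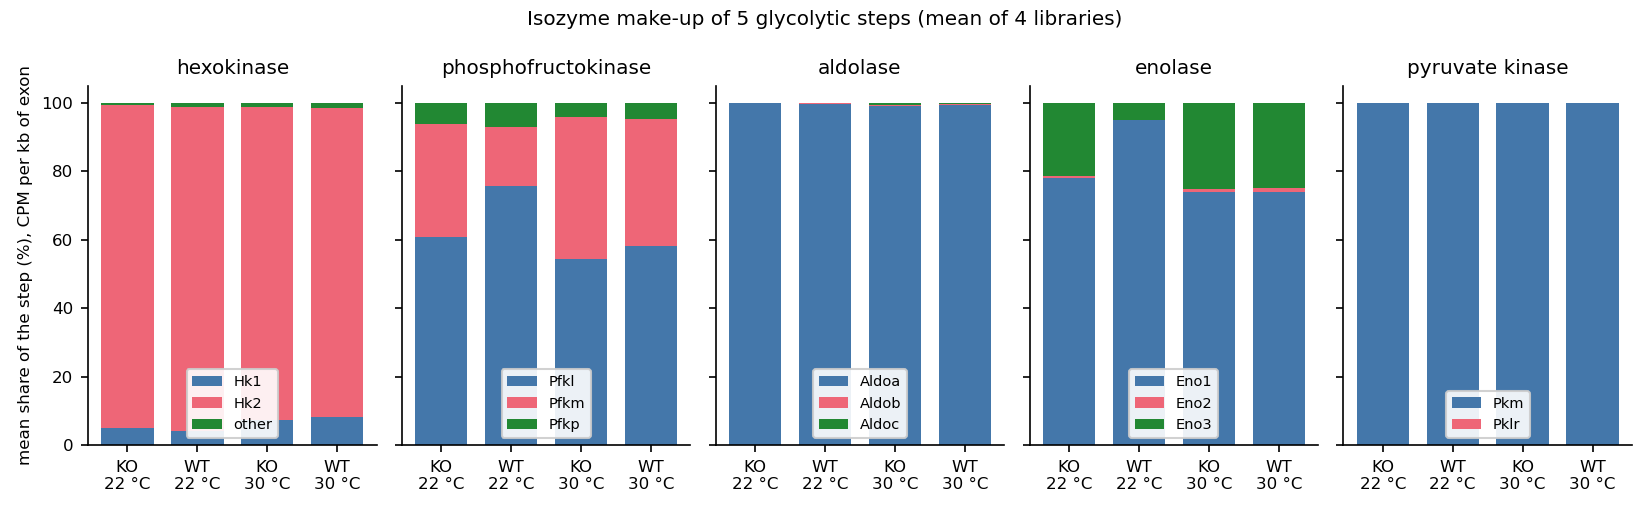
Mean share of isozymes in 5 glycolytic steps, with hexokinases other than Hk1 and Hk2 pooled, from CPM per kb of exon (stacked bars, 4 libraries per group). Hk2, Aldoa and Pkm fill their steps in all groups, while Pfkm and Eno3 take the smallest shares in WT at 22 °C, 17.5 and 4.80%. WT at 22 °C also had the least skeletal muscle RNA on average, at most 0.0282% of counts. Phosphoglycerate mutase, a step shared by Pgam1 and Pgam2, is not drawn.

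Of 15 other glycolytic isozymes, 12 were tested. In KO against WT at 22 °C, Gapdh, which oxidises the triose phosphate, was lower, and Eno2, the neuronal enolase, was higher. Gapdh stood at 63.5, 56.4, 52.2 and 64.3 CPM in KO at 22 °C, against 169, 147, 126 and 124 CPM in WT at 22 °C, with a log2 fold change of -1.26 (SE 0.12, adjusted p = 9.14e-06, edgeR). Eno2 had a log2 fold change of 1.02 (SE 0.28, adjusted p = 0.0225). Its levels were low, at 4.76, 2.20, 1.67 and 2.32 CPM in KO at 22 °C, against 1.03, 1.75, 1.25 and 1.39 CPM in WT. The ranges overlapped, and the highest value was in replicate 1 of KO, the library with most skeletal muscle RNA. In WT, 22 °C against 30 °C, Gapdh (log2 fold change 1.57) and Adpgk (0.27) were called higher, while Aldoc (-2.06), Hk3 (-1.76) and Eno2 (-1.38) were called lower. The muscle isozymes Pfkm, Pgam2 and Eno3 were called in no comparison, with log2 fold changes of 0.26 (adjusted p = 0.555), 3.138 (adjusted p = 0.143) and 1.42 (adjusted p = 0.199) in KO at 22 °C.

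Of the 8 tested regulators of glycolytic flux, 2 were lower in KO at 22 °C, against 10.1% of all genes tested. Fbp2, a fructose bisphosphatase that runs the phosphofructokinase step backwards, stood at 10.3 ± 2.45 CPM in KO and 24.3 ± 6.50 CPM in WT (log2 fold change -1.24, adjusted p = 0.00669, edgeR). Tigar, a fructose bisphosphate phosphatase, had -0.55 (adjusted p = 0.00971). Pfkfb3, which makes the strongest activator of phosphofructokinase, stood at 978 ± 268 CPM in KO and 988 ± 304 CPM in WT, with a log2 fold change of -0.01 (adjusted p = 0.97). Pfkfb3 was higher at 22 °C than at 30 °C in KO (0.76, adjusted p = 0.0214) and in WT (0.80, adjusted p = 0.0105).

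Among 10 genes of glucose entry and of pyruvate and lactate handling, 4 were lower in KO at 22 °C, against 10.1% of all genes tested. Slc2a4, the insulin-regulated glucose transporter GLUT4, stood at 468 ± 18.9 CPM in KO and 792 ± 89.6 CPM in WT (log2 fold change -0.76, SE 0.10, adjusted p = 0.000144, edgeR). Ldha, which makes lactate, had -0.77 (adjusted p = 0.000869). Mpc1 and Mpc2, subunits of the mitochondrial pyruvate carrier, had -0.76 (adjusted p = 3.75e-05) and -0.72 (adjusted p = 0.00387). Ldha, Mpc1 and Mpc2 were also higher at 22 °C than at 30 °C in KO, with log2 fold changes of 0.90, 0.85 and 0.95, against 1.62, 1.71 and 1.90 in WT. Slc2a4 had -0.09 in KO (adjusted p = 0.522) and 0.73 in WT (adjusted p = 4.38e-05).

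Of transcription factors linked to glycolytic genes, 8 were tested, and 2 were lower in KO at 22 °C, against 10.1% of all genes tested. Mlxipl, which encodes the carbohydrate-responsive factor ChREBP, had a log2 fold change of -0.65 (adjusted p = 0.00313, edgeR), and Srebf1, an insulin-responsive lipogenic factor, had -0.82 (adjusted p = 0.0121). Hif1a, which encodes the oxygen-regulated subunit of a hypoxia-inducible factor, had 0.32 (adjusted p = 0.177). Among 10 tested targets of hypoxia-inducible factors outside glycolysis, Pdk1 and Egln1 were lower in KO at 22 °C and Kdm3a was higher. Those are 2 lower and 1 higher of 10, against 10.1% lower and 7.52% higher over all genes tested, so the higher count is near the background. Pdk1, a kinase that inhibits pyruvate dehydrogenase, stood at 77.1 ± 8.85 CPM in KO and 181 ± 17.3 CPM in WT (log2 fold change -1.23, SE 0.10, adjusted p = 2.51e-06). Egln1, an oxygen sensor, had -0.40 (adjusted p = 0.0266), and Kdm3a, a histone demethylase, had 0.53 (adjusted p = 0.00389). Vegfa, an angiogenic growth factor, had 0.36 (adjusted p = 0.0788), and Bnip3, a mitophagy receptor, had 0.42 (adjusted p = 0.122). The medians of the other lists in KO at 22 °C were 0.11 for isozymes, 0.13 for regulators, -0.07 for glucose entry and lactate, -0.02 for transcription factors and 0.27 for the targets outside glycolysis, against 0.02 over all genes tested.

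Tested genes outside the 10 were ranked by how closely their centred log2 CPM followed the mean of the 10. The measure was the root mean square difference over the 16 libraries. Predicted genes, pseudogenes and identifiers without a usual symbol were left out. The closest were Ap4s1 (0.116), Ctsd (0.121), Mmab (0.121), Sirt5 (0.129), Zadh2 (0.131) and Clybl (0.139). The 10 genes themselves lay from 0.173 (Pfkl) to 0.351 (Tpi1) away from their mean. Ap4s1 encodes a subunit of a vesicle adaptor, Ctsd a lysosomal protease, Mmab a mitochondrial enzyme of vitamin B12 use, and Sirt5 a mitochondrial deacylase. The mean of the 10 genes stood at -0.06, -0.06, -0.14 and -0.06 (centred log2 CPM) in KO at 22 °C, against 1.05, 0.90, 0.50 and 0.52 in WT at 22 °C. It stood at -0.25, -0.32, -0.30 and -0.35 in KO at 30 °C, against -0.39, -0.34, -0.28 and -0.42 in WT at 30 °C. Sirt5 averaged -0.17 in KO at 22 °C, 0.79 in WT at 22 °C, -0.34 in KO at 30 °C and -0.28 in WT at 30 °C.

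**Figure D5:**
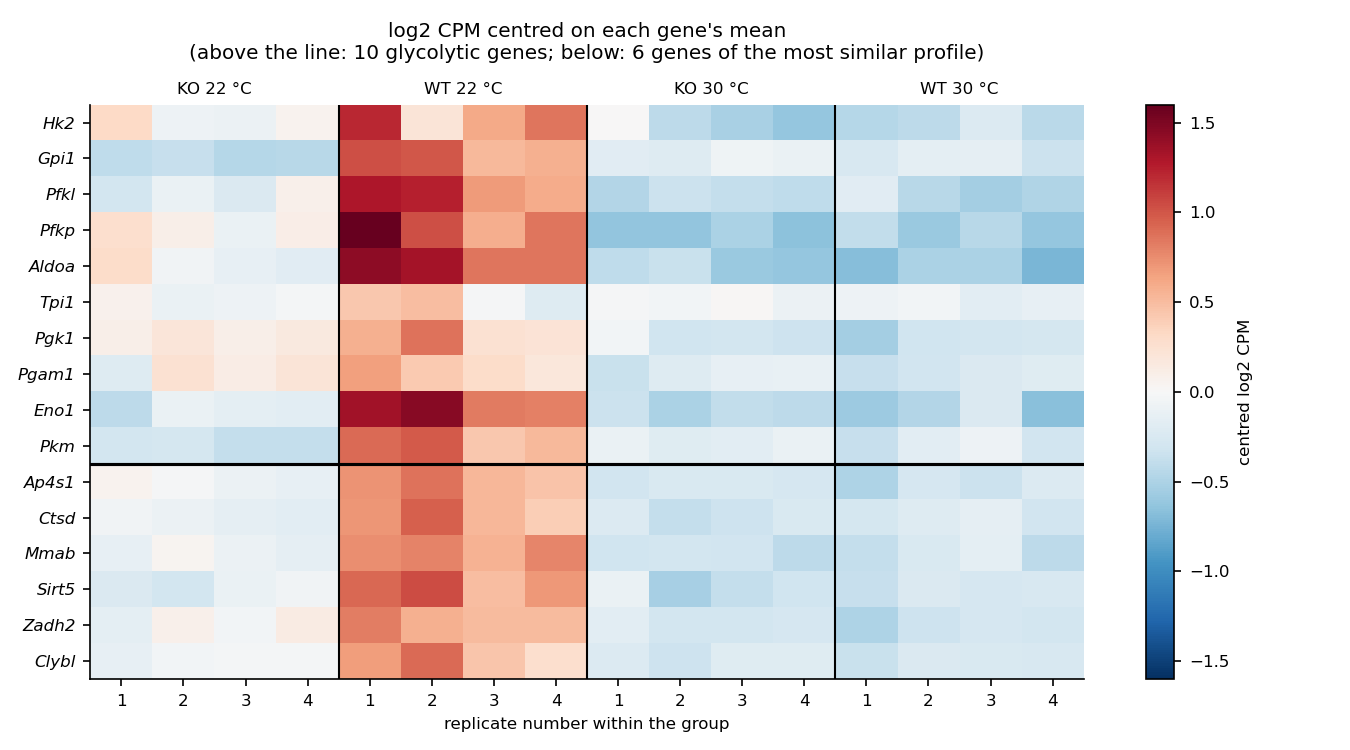
Log2 CPM centred on each gene's mean over 16 libraries, with columns for the libraries by group. Rows are the 10 enzyme genes and, below the line, the 6 genes of most similar profile among those ranked. The WT libraries at 22 °C stand out, with means of the 10 genes from 0.50 to 1.05, while Tpi1 varies least.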

How the data were processed

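Each value deposited is a whole-number count of reads for 1 Ensembl gene in 1 library, with no normalization visible in the values. The submitters' processing notes name STAR 2.4.2a, FastQC 0.10.1, edgeR 3.14.0 and the builds mm10 and GRCm38, without their roles. Which program counted the reads, on which annotation and with which strand setting is not given in the sources used here. Symbols matched 37607 of 38924 identifiers, and the rest held at most 0.132% of counts in any library. Coordinates and lengths are from GENCODE M21 on GRCm38. Groups came from the sample labels.

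From the counts, 14103 genes passed edgeR's filterByExpr (minimum count 10) and entered 1 quasi-likelihood fit of 16 libraries with a term per group (edgeR 4.0.16, R 4.3.3, TMM factors), adjusted by Benjamini-Hochberg over all genes tested. A standard error is the absolute log2 fold change over the square root of F, and 95% intervals use the normal quantile. CPM are TMM-scaled. The common biological coefficient of variation was 22.5%. Intervals cover the spread between libraries, and each of the 10 genes had over 100 counts in every library. No 2 libraries of a group agreed within counting noise. Libraries of the same replicate number gave correlations of deviations from -0.28 to 0.29. Libraries of different numbers were not compared, so whether the numbers pair the samples is not settled.

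The 10 genes and all gene lists were chosen with earlier results of these data known. The genes named are the 10, Akt2, and members of the lists by smallest p or by role, with Ucp1 named as a tissue marker. Pfkm, Pgam2, Eno3, Hif1a, Vegfa, Bnip3, Pfkfb3, Slc2a4, Hk3, Adpgk, Fabp4, Ppargc1a, Plin1, Retn, Nnat and Lep were named in part after their values were seen. Alternatives were other scaling factors, filters, DESeq2 1.42.0, limma-voom (limma 3.58.1), fits on the groups compared, a replicate block, each library left out, muscle and clock covariates, and leaving out muscle-rich libraries. The result for 1 gene of the isozyme list is not reported here.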

Additional observations from a re-analysis of the deposited data

Results flagged for a closer look

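Hk2 in WT at 30 °C had replicate 3 at 366 CPM, apart from the other 3 libraries of the group. Pgk1 in KO at 30 °C had replicate 1 at 23.2 CPM, also apart from the other 3. Of 44 groups of 4 libraries looked at, these 2 had such a gap, and chance gives about 1 in 20. The effect of the knockout differed between 22 °C and 30 °C, by edgeR's interaction test, for 6 of the 10 enzymes. Of all genes tested, 2.39% were called lower and 0.752% higher. Under the clock covariate none of the 10 was called, and the call for Pfkp was lost under several other alternatives. In the fit without covariates, the differences in log2 fold change were -1.30 for Gpi1, -1.12 for Pfkl and -0.89 for Pfkp. They were -1.26 for Aldoa, -1.41 for Eno1 and -1.15 for Pkm. The knockout effect also differed for Gapdh (-1.25), Slc2a4 (-0.82) and the pyruvate carrier genes Mpc1 (-0.86) and Mpc2 (-0.96). It differed too for Ldha (-0.72), Pdk1 (-1.15) and, in the other direction, Kdm3a (0.58).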

How the results depend on the processing

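The count of genes lower in KO at 22 °C stayed within 7 to 10 as each library was left out, and the count higher at 22 °C in WT within 9 to 10. Under the clock covariate it was 1 for KO at 22 °C and 0 for the interaction, which ran from 5 to 6 with libraries left out. In KO, 22 °C against 30 °C, the count higher was 3, against 5 under limma-voom, 0 without the muscle-rich libraries, and 1 to 4 as libraries were left out. The count lower was 0, against 1 under upper-quartile factors, a stricter filter and DESeq2, 2 under limma-voom and 2 with only the groups compared, and 0 to 1 as libraries were left out. With a replicate block, 7 genes were lower in KO at 22 °C, 9 were higher at 22 °C in WT, 4 in KO, and 5 were lower in the interaction. The numbers share no origin in the labels, and the interaction over all genes fell to 41 higher and 145 lower under the block. Signs turned for uncalled values. Under the clock covariate, Tpi1 was 0.22 and Pgk1 0.28 in KO against WT at 22 °C, 0.0703 and 0.0661 in the interaction, and Tpi1 0.26 in KO between temperatures. In KO against WT at 30 °C, Hk2 was -0.0133 under the replicate block, -0.0032 under the clock covariate and -0.21 without muscle-rich libraries, and -0.14 to 0.0796 as libraries were left out. Pfkl was -0.00303 under upper-quartile factors, -0.0035 with only the groups compared, -0.012 without muscle-rich libraries and -0.048 to 0.0814 with libraries left out, and Eno1 ran from -0.0031 to 0.14. Tpi1 in KO between temperatures ran from -0.0471 to 0.0121, and Akt2 in the interaction from -0.0504 to 0.14, as libraries were left out. Over all genes, KO against WT at 22 °C gave 1061 higher and 1421 lower, against 193 and 441 with only the groups compared and 22 and 82 under the clock covariate. The interaction gave 106 and 337, against 313 and 747 under DESeq2, 372 and 678 under limma-voom and 20 and 76 without the muscle-rich libraries. Of the isozyme shares under coding length, with a library left out or without muscle-rich libraries (the last 2 chosen after seeing the data), 44 values moved by 1 SD or more and 370 by less. The causes were not tested. By depth, Pgk1 and Pgam1 have the fewest counts.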
